A study of Mus musculus with 6 samples.

Results

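Chemokines and their receptors were examined in the left ventricle of mice lacking Kdm3a (KO) and of wild-type mice (WT) after transverse aortic constriction (TAC), a banding of the aorta that loads the heart with pressure, or after sham surgery. Members were all array probes annotated to a gene named Ccl, Ccr, Cxcl or Cxcr with a number, or to Cx3cl1, Cx3cr1, Xcl1 or Xcr1. That gave 50 genes with 73 probes, among 45281 probes in all. Of these, 33 probes of 25 genes were above background on at least 1 array, that is, brighter than the 99th percentile of probes for olfactory receptors, which served as genes silent in heart (a level of 151 to 155 intensity units).

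The 6 arrays were 2 KO TAC, 2 WT TAC, 1 KO Sham and 1 WT Sham, all from male mice labelled c57/BL6, operated at 6 to 8 weeks of age, with the heart taken 3 weeks later. The study's own text gives a longer interval for its profiling and describes more than 1 genetic background for the knockout, so the interval and the line behind these arrays rest on the labels alone. The knockout of Kdm3a, a histone H3K9 demethylase, is of the whole body and not of the myocyte alone. Nothing says that the 2 arrays of a TAC group came from separate animals, and p-values therefore measure the spread between arrays, which may be technical.

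Chemokines are small secreted or membrane-bound proteins that draw leukocytes along a gradient by binding receptors coupled to G proteins. CXC ligands such as Cxcl1 and Cxcl2 attract neutrophils, the CC ligands attract mainly monocytes, eosinophils and lymphocytes, and a few, such as Cxcl12, are made constantly by stromal cells and hold cells in place. In the loaded or injured heart they are known as early signals that bring in inflammatory cells, and many are targets of the transcription factor NF-kappaB.

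RefSeq promoters (GRCm38.p6, from 250 bases before to 50 after the start of the gene) were on hand for 18 of the 25 genes above background, 19 promoters in all. Those of Cxcl1, Cxcl2 and Cxcl10, lower in KO TAC hearts than in WT TAC hearts, are shown because they hold the motif described here, and that of Cxcl12, higher in KO TAC, as one without it. The promoters of Ccl6, Ccl17, Ccl19, Cx3cl1, Cxcl14, Cxcr2 and Cxcr6, which were lower too, also lack it. Each reads 5′ to 3′ on the strand of the gene, and capitals mark matches to the kappaB consensus, the site at which NF-kappaB binds, searched on both strands, where matches on opposite strands may overlap.
Cxcl1 promoter (chr5:90890995-90891294, plus strand): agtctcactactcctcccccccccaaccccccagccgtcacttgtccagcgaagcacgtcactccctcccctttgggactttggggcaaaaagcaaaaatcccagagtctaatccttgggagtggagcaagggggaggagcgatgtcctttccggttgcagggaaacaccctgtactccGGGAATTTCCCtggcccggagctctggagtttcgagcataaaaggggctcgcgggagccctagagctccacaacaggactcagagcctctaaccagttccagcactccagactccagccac
Cxcl2 promoter (chr5:90903649-90903948, plus strand): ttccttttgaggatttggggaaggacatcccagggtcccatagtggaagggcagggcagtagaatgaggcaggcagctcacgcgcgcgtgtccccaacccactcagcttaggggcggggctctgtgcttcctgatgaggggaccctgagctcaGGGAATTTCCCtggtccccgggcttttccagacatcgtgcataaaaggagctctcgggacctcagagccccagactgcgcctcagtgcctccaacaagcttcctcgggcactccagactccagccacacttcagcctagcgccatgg
Cxcl10 promoter (chr5:92348840-92349139, minus strand): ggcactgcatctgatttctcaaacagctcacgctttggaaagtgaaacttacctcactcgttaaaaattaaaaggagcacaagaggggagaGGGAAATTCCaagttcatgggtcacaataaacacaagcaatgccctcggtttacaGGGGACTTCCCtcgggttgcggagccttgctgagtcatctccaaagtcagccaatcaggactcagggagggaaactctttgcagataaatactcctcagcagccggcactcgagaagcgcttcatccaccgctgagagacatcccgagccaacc
Cxcl12 promoter (chr6:117168285-117168584, plus strand): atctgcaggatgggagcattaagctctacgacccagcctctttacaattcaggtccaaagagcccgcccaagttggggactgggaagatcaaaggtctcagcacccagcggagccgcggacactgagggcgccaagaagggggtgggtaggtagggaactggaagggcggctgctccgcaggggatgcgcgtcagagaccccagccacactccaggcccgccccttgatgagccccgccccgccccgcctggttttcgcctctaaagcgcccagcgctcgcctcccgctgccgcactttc
The match began 71 bases before the start of Cxcl1 and 97 bases before that of Cxcl2, and Cxcl10 had 4 overlapping or separate matches from 159 to 103 bases before its start. Only Ccl9 among the other member promoters had a match, so that 4 of 19 held one, against 2779 of 32841 mouse promoters of the same length (8.46%). The letters TATAAA were found on either strand in 7 of the 19, against 13.6% of all promoters. A match is a run of letters and no evidence of binding.

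Kdm3a itself was checked first. The probe with the widest gap, chosen after its values were seen, read 137 and 143 on the KO TAC arrays, 296 and 264 on the WT TAC arrays, 129 on the KO Sham array and 292 on the WT Sham array. A pair of further probes was above background on all 6 arrays, and both were lower on each KO array than on each WT array. The remaining Kdm3a probe was below background on every array, and its genotypes overlapped. It read 121 and 118 in KO TAC, 115 and 126 in WT TAC, 128 in KO Sham and 125 in WT Sham. Where these probes lie relative to the deleted part was not given in the sources used here. Both WT TAC arrays separated from the remaining 4 along principal component 1 (78.4% of variance), at 62.2 and 71.9 against values between -35.1 and -30.5. All 7 measured ventricular myocyte markers were above background, and so were 4 of 6 atrial markers, all but Myl7 and Bmp10.

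Of the 33 chemokine probes, 16 were lower and 7 higher in KO TAC hearts relative to WT TAC hearts, and 10 did not pass the test (limma, Benjamini-Hochberg adjusted p at 0.05 over all 17575 tested probes). Over all tested probes 17.1% were lower and 19.2% higher, 36.3% together. By the brightest probe of each gene, 13 genes were lower and 6 higher. The median log2 fold change of the 33 probes was -0.56, against 0.05 over all tested probes. Since 9 of the 33 were above background only on WT TAC arrays, and so had to be lower in KO TAC, the count over the 16 probes measured on all 6 arrays is given too: 6 were lower, 4 higher and 6 not past the test, where 15.7% of all probes measured on all 6 arrays were lower and 20.1% higher. Values below are deposited intensities, and fold changes, other than those given as "at least", come from the background-corrected fit, which gives larger folds for dim probes than the ratio of intensities. In whole ventricle, fewer cells of a type and less RNA per cell cannot be told apart.

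**Figure D1:**
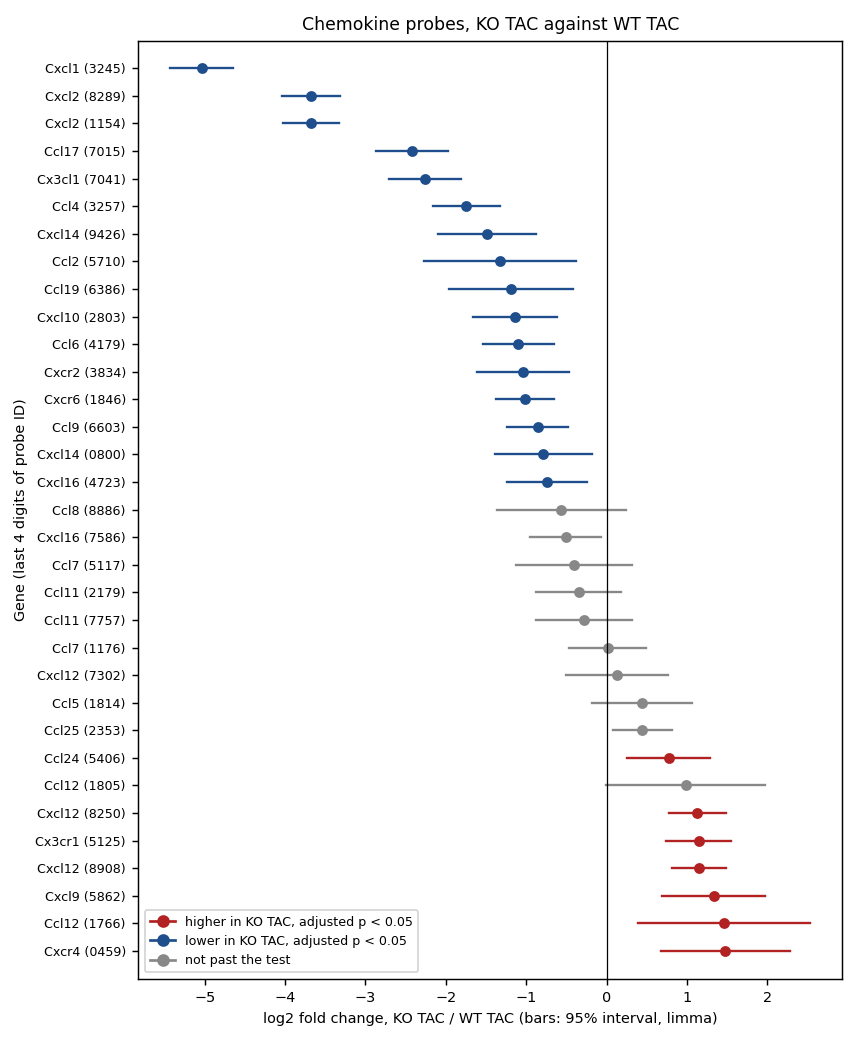
Log2 fold change of each of the 33 chemokine probes in KO TAC against WT TAC hearts (horizontal axis), with its 95% interval from limma, ordered from lowest to highest. The 16 probes in blue were lower and the 7 in red higher in KO TAC, and Cxcl1 at -5.04 lies farthest from 0.

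The neutrophil attractants Cxcl1 and Cxcl2 differed most. Cxcl1 read 198 and 189 in KO TAC and 3346 and 2783 in WT TAC hearts, with 190.4 in KO Sham and 158 in WT Sham. It was thus high on the 2 WT TAC arrays alone, 32.9-fold lower in KO TAC (log2 -5.04 ± 0.16 SE, limma adjusted p 2.64e-05). Cxcl2, its neighbour on chromosome 5, has 2 probes, neither above background outside WT TAC. The brighter probe read 120.4 and 123 in KO TAC, 383 and 405 in WT TAC, 118 in KO Sham and 125 in WT Sham. Cxcl2 was at least 2.56-fold lower in KO TAC by that probe and at least 2.32-fold by the other, where "at least", here and below, sets the deposited intensities in WT TAC against the background level, since the gene had no measured level in KO TAC. Cxcl3 and Cxcl15, which lie beside them and also attract neutrophils, were below background on every array.

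Cxcr2, the receptor for Cxcl1 and Cxcl2 on neutrophils, was near background. Its brighter probe read 119.8 and 113 in KO TAC and 137 and 159 in WT TAC hearts, with 115 in KO Sham and 121 in WT Sham, and only 1 WT TAC array was above background. It passed the test as lower (limma adjusted p 0.0166), with no fold that can be given, and without the second WT TAC array it did not (adjusted p 0.0674). Its other probe was below background on every array, at 116 and 114 in KO TAC and 112 and 109 in WT TAC. Of 11 neutrophil markers above background, 10 were lower in KO TAC and none higher, Cxcr2 being 1 of the 10. Over all tested probes 17.1% were lower and 19.2% higher. Markers measured in WT TAC but below background in KO TAC, Retnlg and Cxcr2 among them, could only come out lower. The summed intensity of the 11 was 1680 to 1967 in KO TAC, 10698 to 15775 in WT TAC, 2040 in KO Sham and 1792 in WT Sham. S100a8 (log2 -4.87 ± 0.44) and S100a9 (-4.69 ± 0.42), the calcium-binding proteins that fill the neutrophil cytoplasm, Retnlg (at least 5.90-fold) and Lcn2 (-3.95 ± 0.14), an iron-carrier-binding protein, differed most, while the granule genes Mpo and Mmp8 were below background on every array. The part of these cells in the chemokine differences was not tested.

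**Figure D2:**
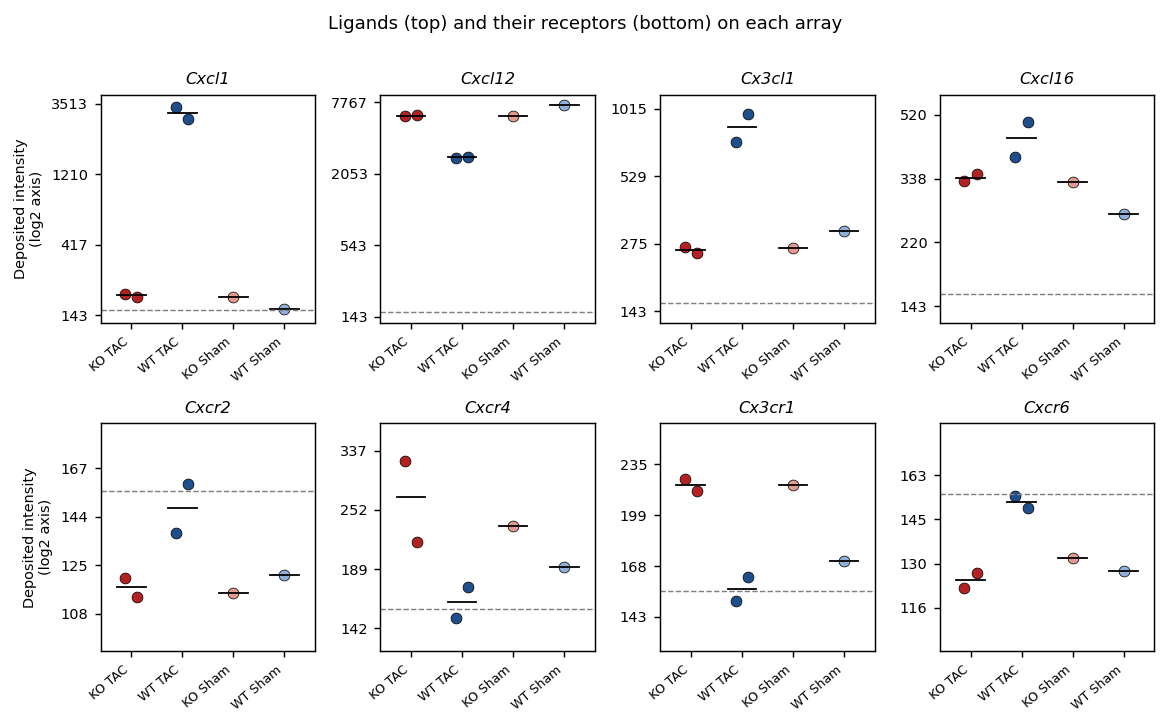
Deposited intensity (vertical, log2 axis) of 4 ligands in the top row and a receptor of each below it, by the brightest probe. Points are arrays, bars are group means and the dashed line is the highest background level, 155. Cxcl1 and Cx3cl1 are high in WT TAC alone, Cxcl12 is low in WT TAC alone, and Cxcr2 and Cxcr6 stay near background.

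Cx3cl1 (fractalkine), a membrane-anchored ligand of endothelium, lies beside Ccl17 on chromosome 8. It read 267 and 251 in KO TAC and 736 and 966 in WT TAC hearts, with 265 in KO Sham and 313 in WT Sham. The KO TAC arrays lay at the level of KO Sham, and Cx3cl1 was 4.78-fold lower than in WT TAC (log2 -2.26 ± 0.19, limma adjusted p 0.000429). Its receptor Cx3cr1, found on monocytes and resident macrophages, was higher in KO TAC, with 223 and 215 in KO TAC, 150.2 and 163 in WT TAC, 219.6 in KO Sham and 171 in WT Sham. It passed no test for an effect of TAC (log2 -0.36 in WT and -0.004 in KO hearts) or for a difference between these effects. It was also higher in KO Sham than in WT Sham, though not past the test (log2 0.78). It was 2.21-fold higher in KO TAC (log2 1.15 ± 0.17, limma adjusted p 0.0032), although 1 of the 2 WT TAC arrays was below background. Both calls held in each of the 13 alternative limma fits.

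Cxcl16, the other membrane-bound chemokine, gave less clear values. Its brighter probe (ILMN_2687586) read 333 and 348 in KO TAC, 392 and 495 in WT TAC, 331 in KO Sham and 267 in WT Sham, and did not pass the test (log2 -0.51 ± 0.19, limma adjusted p 0.0736). The dimmer probe (ILMN_1254723) was above background in WT TAC alone, at 161 and 189, against 147 and 144 in KO TAC, 144 in KO Sham and 146 in WT Sham, and was at least 1.13-fold lower in KO TAC. That call was lost without the second WT TAC array (adjusted p 0.158) or the second KO TAC array (0.0702). The receptor Cxcr6, of T cells and NKT cells, read 122 and 127 in KO TAC and 155 and 149.7 in WT TAC hearts, with 132 in KO Sham and 127 in WT Sham. Though only 1 array was above background, it passed as lower (limma adjusted p 0.00327), with no fold that can be given. All 12 T and NK cell markers with a probe, Cd3d, Cd3e and Nkg7 among them, were below background on every array.

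Cxcl12 and its receptor Cxcr4, which retain leukocytes and vascular progenitors in tissue, were both higher in KO TAC than in WT TAC hearts. The Cxcl12 probe ILMN_2658908 read 5974 and 6139 in KO TAC, 2769 and 2799.6 in WT TAC, 6038 in KO Sham and 7397 in WT Sham. Here the KO TAC arrays were at the sham level and the WT TAC arrays low, a 2.22-fold difference (log2 1.15 ± 0.14, limma adjusted p 0.00158). A second probe (ILMN_3158250), annotated to another transcript of the gene, read 769.5 and 739.8 in KO TAC, 383 and 420.1 in WT TAC, 786 in KO Sham and 868 in WT Sham, a 2.19-fold difference. The third (ILMN_2737302), to yet another transcript, read 269 and 386 in KO TAC and 279 and 327 in WT TAC, with 303 in KO Sham and 271 in WT Sham, and its groups overlapped (log2 0.13 ± 0.27). The 2 remaining Cxcl12 probes were below background, so that the probes of this gene did not all show the same pattern.

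Cxcr4 read 321 and 216 in KO TAC, 149 (below background) and 173 in WT TAC, 234 in KO Sham and 191 in WT Sham. It was 2.79-fold higher in KO TAC (log2 1.48 ± 0.34, limma adjusted p 0.0156), and without the first WT TAC array the call was lost (adjusted p 0.0931). Cxcl14, a CXC ligand of epithelium and fibroblasts, differed by genotype after TAC with both probes, lower in KO. ILMN_2659426 read 187 and 245 in KO TAC, 433 and 385 in WT TAC, 222 in KO Sham and 215 in WT Sham, 2.81-fold lower in KO TAC (log2 -1.49 ± 0.26, limma adjusted p 0.00552). The brighter ILMN_2760800 read 308 and 442 in KO TAC, 602 and 517 in WT TAC, 359.6 in KO Sham and 384 in WT Sham, 1.73-fold lower (adjusted p 0.0489). That second call was lost without the first WT TAC, the second WT TAC or the first KO TAC array, with adjusted p of 0.206, 0.114 and 0.154.

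The interferon-induced ligands Cxcl9 and Cxcl10, both of which bind Cxcr3 on activated T cells, moved in opposite directions. Cxcl9 read 251 and 363 in KO TAC, 175 and 187 in WT TAC, 382 in KO Sham and 227 in WT Sham. It was 2.52-fold higher in KO TAC (log2 1.33 ± 0.27, limma adjusted p 0.0101) and lost its call without the first WT TAC array (0.0644). Cxcl10 read 132 and 131 in KO TAC, 182 and 155 in WT TAC, 151 in KO Sham and 132 in WT Sham, above background in WT TAC alone. It was at least 1.09-fold lower in KO TAC (limma adjusted p 0.00814). Cxcl11 and the receptor Cxcr3 were below background on every array.

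**Figure D3:**
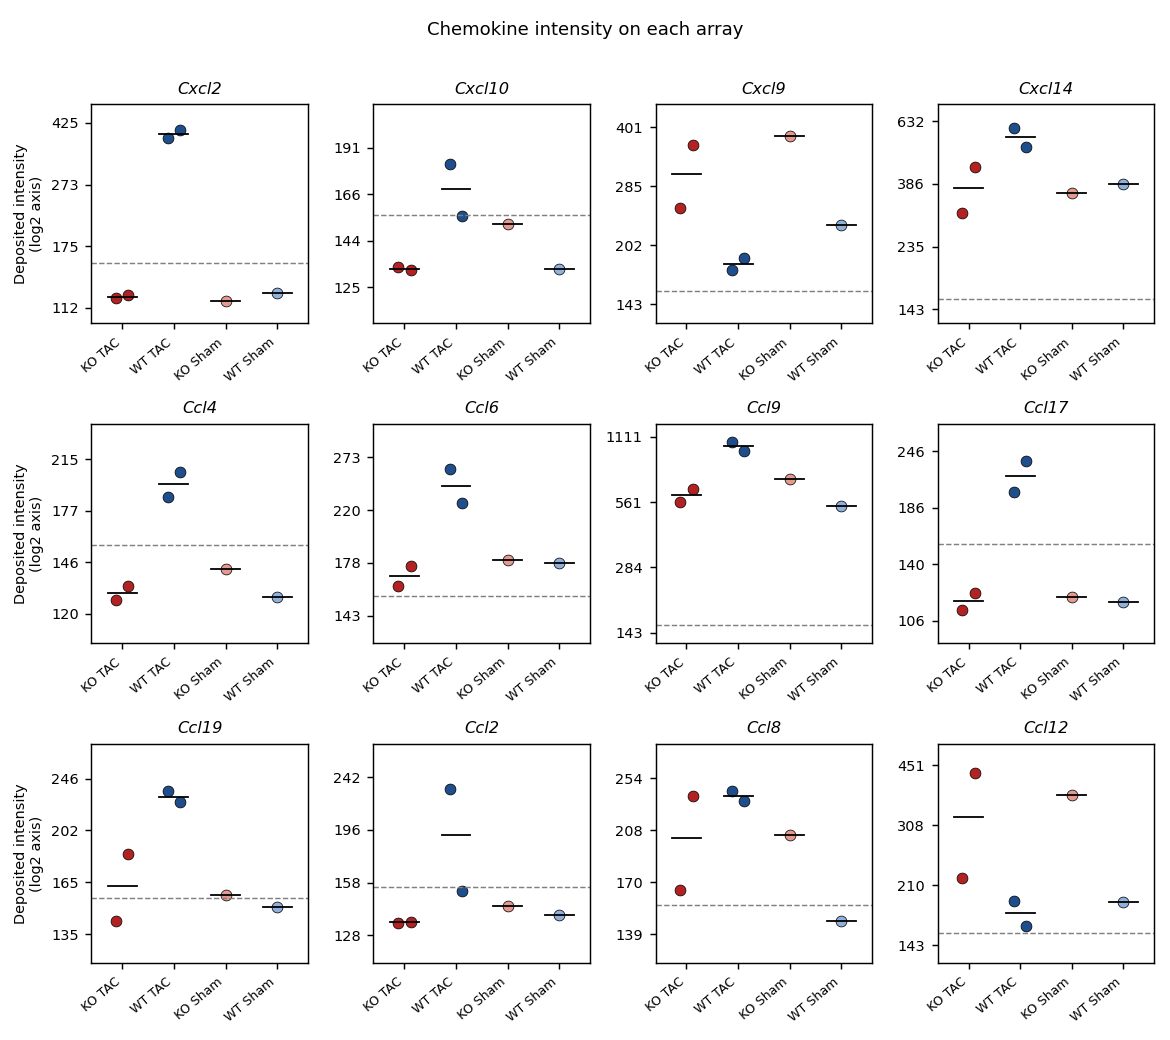
Deposited intensity (vertical, log2 axis, scaled to each gene) of 12 further chemokine ligands by the brightest probe. Points are arrays, bars are group means and the dashed line is the highest background level, 155. The WT TAC arrays are highest for Cxcl2, Cxcl10, Cxcl14, Ccl4, Ccl6, Ccl9, Ccl17 and Ccl19, whereas Cxcl9 and Ccl12 are higher in KO TAC.

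Among a row of CC ligand genes on chromosome 11, Ccl4, Ccl6 and Ccl9 were lower in KO TAC and Ccl5 did not pass the test. Ccl4, which attracts monocytes and T cells, read 126 and 133 in KO TAC, 187 and 205 in WT TAC, 142 in KO Sham and 128 in WT Sham, at least 1.27-fold lower in KO TAC (limma adjusted p 0.000812). Ccl9, a ligand of Ccr1, read 562 and 645 in KO TAC, 1058 and 956 in WT TAC, 713 in KO Sham and 539 in WT Sham. It was 1.81-fold lower (log2 -0.86 ± 0.16, adjusted p 0.00755, and 0.0507 without the first WT TAC array). Ccl6, beside Ccl9 on chromosome 11 and related to it, read 162 and 175 in KO TAC and 259.7 and 226 in WT TAC hearts, with 179.7 in KO Sham and 178 in WT Sham, 2.14-fold lower (log2 -1.10 ± 0.19). All 4 genes lie in 1 run on chromosome 11 with Ccl3, which was below background on every array. Ccl5 (RANTES), a ligand of T cells, read 156 and 187 in KO TAC, 145 and 160.1 in WT TAC, 182 in KO Sham and 133 in WT Sham (log2 0.44 ± 0.26, adjusted p 0.229).

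The monocyte attractants Ccl2, Ccl7, Ccl12 and Ccl8 and the eosinophil attractant Ccl11 also stand in a row on chromosome 11, and they did not move together. Ccl2 (MCP-1) read 135 and 135 in KO TAC, 230.5 and 153 in WT TAC, 144 in KO Sham and 139 in WT Sham. Only the first WT TAC array was above background, and without it the call (at least 1.22-fold lower in KO TAC, limma adjusted p 0.0394) was lost (log2 -0.64). Ccl12, the mouse ligand also called MCP-5, was higher in KO TAC by its brighter probe, at 221 and 429.8 in KO TAC, 189.7 and 162 in WT TAC, 373 in KO Sham and 189 in WT Sham. The KO TAC arrays differed widely, and its call (log2 1.46 ± 0.45, adjusted p 0.0434) was lost without either WT TAC array or without the second KO TAC array, with adjusted p of 0.0885, 0.213 and 0.057.

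The dimmer Ccl12 probe, at 163 and 240.4 in KO TAC, 164 and 138 in WT TAC, 259 in KO Sham and 151 in WT Sham, did not pass (log2 0.98 ± 0.42, limma adjusted p 0.109). Ccl8 (MCP-2) read 165 and 238 in KO TAC, 242 and 233 in WT TAC, 204 in KO Sham and 146 in WT Sham, and its groups overlapped (adjusted p 0.236). Ccl7 (MCP-3) differed little by its brighter probe, with 271 and 263 in KO TAC, 297 and 239 in WT TAC, 242 in KO Sham and 278 in WT Sham. The 95% interval of that log2 difference ran from -0.46 to 0.49. Its other probe read 229.9 and 210.0 in KO TAC, 318 and 214 in WT TAC, 229.7 in KO Sham and 239.7 in WT Sham, with only the first WT TAC array high (log2 -0.41 ± 0.30). Ccl11 (eotaxin) likewise overlapped, at 276 and 238 in KO TAC, 337 and 249 in WT TAC, 202 in KO Sham and 288 in WT Sham (log2 -0.28 ± 0.25). Ccl24, another eosinophil attractant, was at the edge of background: it read 147 and 160.3 in KO TAC and 126 and 137 in WT TAC hearts, with 147 in KO Sham and 161 in WT Sham. It passed as higher (at least 1.01-fold, adjusted p 0.0313), and the call was lost without the first WT TAC array (0.158) or the second KO TAC array (0.0932).

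Of the CC ligands that act on lymphocytes and dendritic cells, Ccl17 and Ccl19 were lower in KO TAC. Ccl17, which attracts T cells through Ccr4, read 111 and 122 in KO TAC, 201 and 234 in WT TAC, 119 in KO Sham and 116 in WT Sham, at least 1.41-fold lower in KO TAC (limma adjusted p 0.000332). Ccl19, which guides cells bearing Ccr7 into lymphoid tissue, read 142 and 184 in KO TAC, 235 and 225 in WT TAC, 157 in KO Sham and 149.7 in WT Sham. The first KO TAC array and the WT Sham array were below background. By the fit, on another scale than the bound for Ccl17 (fitted log2 -2.42), Ccl19 was 2.28-fold lower in KO TAC (log2 -1.19 ± 0.32, limma adjusted p 0.0286). Without the first or the second WT TAC array that call was lost (0.123 and 0.111), and near-identical copies of this gene in the mouse genome make the source of its signal uncertain. Ccl25, of thymus and gut, was higher on both KO TAC arrays than on either WT TAC array but did not pass the test, with 198 and 209.7 in KO TAC, 173 and 182 in WT TAC, 181 in KO Sham and 207 in WT Sham (log2 0.44 ± 0.16, adjusted p 0.0638). Ccl22, which shares Ccr4 with Ccl17, was below background.

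Most receptors were not measured. Of 17 receptor genes, 4 were above background on any array, namely Cxcr2, Cxcr4, Cxcr6 and Cx3cr1, against 21 of 33 ligand genes. Ccr1, Ccr2, Ccr3, Ccr4, Ccr6, Ccr7, Ccr8, Ccr9, Ccr10, Cxcr1, Cxcr3, Cxcr5 and Xcr1 stayed below on all 6 arrays. The 40 probes never above background read between 107 and 153, and 25 genes, Ccl1, Ccl3, Ccl20, Ccl28 and Cxcl13 among them, had none above background and have only an upper bound here. The rest are dimmer probes of genes given above.

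In WT hearts 14 of the 33 probes were higher after TAC and 3 lower, and 16 did not pass the test (limma, 2 WT TAC arrays against 1 WT Sham array), while over all tested probes 12.8% rose and 12.8% fell, 25.6% together. Of the 14 higher probes, 6 were above background only on WT TAC arrays and could not have been lower. Those of Ccl8 and Ccl19, below background in WT Sham, could not have been lower either. Over the 16 probes measured on all 6 arrays, 6 were higher and 2 lower, against 11.4% and 13.1% of all probes measured on all 6. By the brightest probe of each gene, 12 genes rose and 2 fell. Cxcl1 rose 53.9-fold (log2 5.75 ± 0.20), Cxcl2 at least 2.54-fold, Cx3cl1 3.53-fold, Ccl17 at least 1.40-fold and Ccl4 at least 1.26-fold. In WT Sham Cxcl1 read 158 against a background level of 155, so the size of its fold depends on the background correction. Over the alternative fits its log2 effect ran from 4.27 to 5.89. Folds given as "at least" are on the scale of intensities and cannot be ranked against the fitted folds. Ccl8 rose at least 1.53-fold and Ccl19 at least 1.48-fold, each from below background in WT Sham. Ccl9 rose 2.07-fold, Cxcl16 2.06-fold by its brighter probe, Ccl6 1.86-fold, Cxcl14 2.73-fold by its dimmer probe, and Cxcl10 at least 1.08-fold, and Cxcr6 passed with no fold that can be given. Cxcl12 fell 2.72-fold (log2 -1.44 ± 0.17) and 2.57-fold by its 2 probes, and Ccl24 at least 1.06-fold. Among the 17 calls, 8 held with any TAC array left out: Cxcl1, both Cxcl2 probes, Cx3cl1, Ccl17, Ccl4 and the 2 Cxcl12 probes. The other 9, of Ccl6, Ccl8, Ccl9, Ccl19, Ccl24, Cxcl10, Cxcl14, Cxcl16 and Cxcr6, were each lost without the first WT TAC array, the second, or either, with adjusted p between 0.0505 and 0.122.

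TAC in KO hearts changed no chemokine probe past the test (limma, 2 KO TAC arrays against 1 KO Sham array), nor any of the 17575 probes (0%). At an unadjusted p under 0.05, none of the 33 chemokine probes was higher and 1 was lower, namely Cxcl10 (log2 -0.72 ± 0.27), against 1.5% and 1.46% of all tested probes. The median log2 fold change of the 33 was -0.004, close to the -0.002 of all tested probes. The limma intervals ran from -0.42 to 0.52 on the log2 scale for Cxcl1, from -0.61 to 0.50 for Cx3cl1 and from -0.40 to 0.41 for Cxcl12. For Ccl12 the interval was wide, from -1.78 to 0.85. With 1 KO Sham array the spread was taken from the TAC arrays, so these intervals do not cover variation between sham animals.

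**Figure D4:**
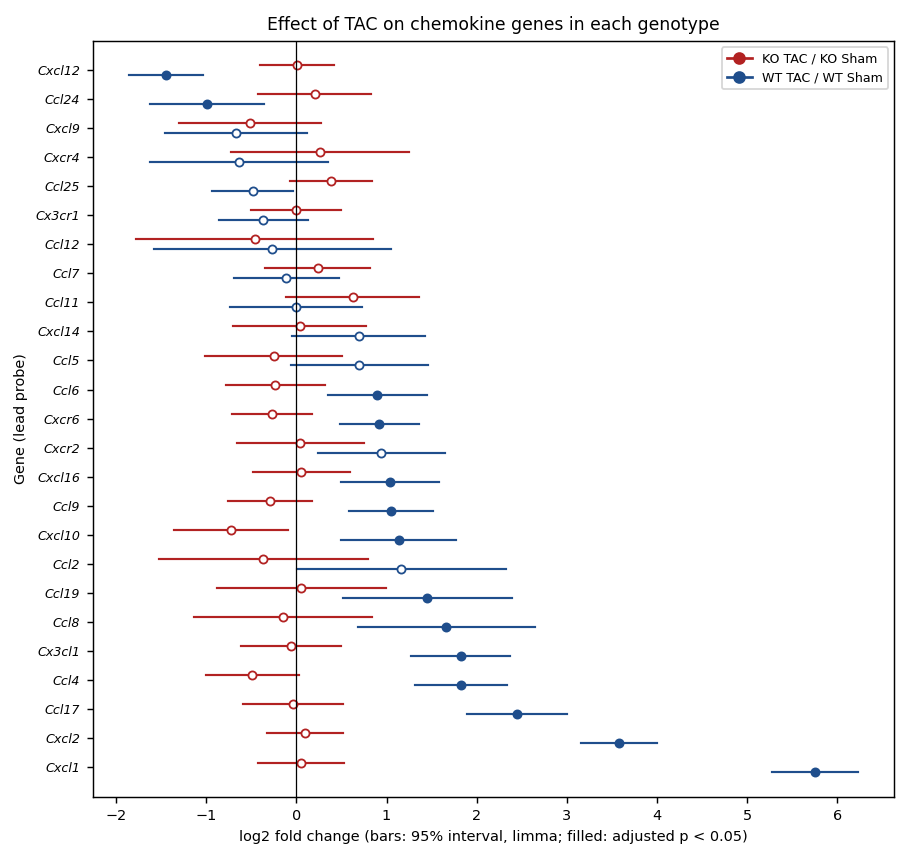
Log2 fold change of each of the 25 chemokine genes (brightest probe) after TAC, in KO hearts (red) and WT hearts (blue), with 95% intervals from limma. Filled points passed adjusted p 0.05: 14 genes in WT hearts, from -1.44 for Cxcl12 to 5.75 for Cxcl1, and none in KO hearts.

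The difference between the TAC effects of the genotypes was tested directly. It passed for 11 probes of 9 genes (limma, adjusted p at 0.05), 9 lower and 2 higher, against 10.1% of all tested probes, 6.08% lower and 4% higher. In 9 of the 11 the effect of TAC was lower in KO, with Cxcl1 (log2 -5.70 ± 0.28) and the 2 Cxcl2 probes (-3.66 ± 0.26 and -3.48 ± 0.25) farthest from 0, followed by Ccl17, Ccl4, Cx3cl1, Cxcl10, Ccl9 and Cxcr6. For the 2 brighter Cxcl12 probes the effect was higher in KO (1.45 ± 0.24 and 1.29 ± 0.26). Of the 9 lower probes, 6 were above background only on WT TAC arrays. Over the 16 probes measured on all 6 arrays, 3 were lower and 2 higher, against 5.07% and 3.75% of all such probes. This comparison rests on the same WT TAC arrays as the one above and is no separate evidence. The calls for Ccl9, Cxcr6 and both Cxcl12 probes were lost without either WT TAC array (adjusted p 0.0533 to 0.0981), and that for Cx3cl1 without the second (0.062).

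Between the sham hearts, 1 KO and 1 WT array, no chemokine probe passed the test, and 0.074% of all tested probes did, 0.0512% higher and 0.0228% lower. Before adjustment, 7 chemokine probes were higher in KO Sham and 2 lower (limma, p under 0.05), against 3.84% and 3.74% of all tested probes. Each p here sets 1 array against 1, with the spread of the TAC pairs. The higher ones were Ccl5 (log2 1.39 ± 0.37), both Ccl12 probes (1.66 ± 0.64 and 1.72 ± 0.59), Ccl8 (1.25 ± 0.48), Cxcl9 (1.18 ± 0.38), Cx3cr1 (0.78 ± 0.24) and Cxcl1 (0.66 ± 0.23), with adjusted p from 0.457 to 0.625. The lower ones were the 2 Ccl11 probes (-0.90 ± 0.36 and -0.93 ± 0.31).

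The wider chemokine system was followed in lists of related genes. In KO TAC against WT TAC hearts, 17.1% of all tested probes were lower and 19.2% higher. A gene below background in 1 TAC group, given with a lower bound, could pass in 1 direction only. Of 8 ligands outside the naming rule, 2 were lower in KO TAC hearts, relative to WT TAC hearts, and 1 higher. Mif, a cytokine that also binds Cxcr2 and Cxcr4, read 8827 and 7846 in KO TAC and 17570.4 and 20093 in WT TAC (log2 -1.19 ± 0.16, limma adjusted p 0.0021). Pf4, of platelets and macrophages, was 1.49-fold lower, and Ccl27a was higher (log2 0.63 ± 0.20). Of 5 atypical or chemokine-like receptors, 3 were lower and 1 higher. The scavengers Ackr1 (at least 1.28-fold) and Ackr2 (log2 -1.85 ± 0.15) and the chemerin-binding Ccrl2 (-1.03 ± 0.18) were lower, and Ackr4, a scavenger of Ccl19 and Ccl25, was higher (1.40 ± 0.16). Ackr3, the scavenger of Cxcl12, Cmklr1 and Gpr1 were below background.

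Downstream of the receptors, 5 of 16 signalling genes were lower in KO TAC and 1 was higher, close to the share of all tested probes that passed (36.3%). Rgs1, which ends signalling by G proteins in leukocytes, was at least 2.17-fold lower and Rgs16, a relative, at least 1.42-fold. Elmo1, of the Rac activation that drives migration, was lower (log2 -1.53 ± 0.16), whereas Rgs2 was at least 1.22-fold higher. Of 8 genes for chemokine binding and cleavage, 2 were lower and 2 higher, against 17.1% and 19.2% of all tested probes. The heparan sulfate carriers Sdc4 (-1.96 ± 0.14) and Hspg2 (-0.70 ± 0.15) were lower, and the proteases Dpp4, which trims Cxcl12 and Cxcl10, and Adam17, which sheds Cx3cl1, were higher (0.88 ± 0.14 and 0.60 ± 0.17). Of 13 NF-kappaB pathway genes and feedback targets above background, 10 were lower and none higher, against 17.1% and 19.2% of all tested probes. Those below background in KO TAC, Bcl3 among them, could only come out lower. The 10 included the IkappaB family member Nfkbiz (-3.63 ± 0.18), the adhesion molecule Icam1 (4.01-fold), Bcl3 (at least 1.74-fold) and Nfkbia (-1.77 ± 0.20). Their part in the chemokine levels was not tested.

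Markers of other cells that make or answer chemokines are given beside the shares over all tested probes, 17.1% lower and 19.2% higher. The count of lower monocyte and macrophage markers was near the lower share. Of 14 monocyte and macrophage markers, 3 were lower in KO TAC and none higher, namely Cd14 (log2 -4.37 ± 0.14), a target of inflammatory signals as well as a marker, Fcer1g and Tyrobp, while Itgam and Timd4 were below background. The summed intensity of the list was 8022 to 9794 in KO TAC, 12493 to 12981 in WT TAC, 9417 in KO Sham and 6771 in WT Sham. Of 11 endothelial markers, 5 were lower and 3 higher. Selp and Sele, the selectins on which leukocytes roll, were at least 5.67-fold and at least 2.03-fold lower, Cldn5 was lower (-2.60 ± 0.16) and Egfl7 higher (0.88 ± 0.16), with sums of 15973 to 17508 in KO TAC, 21354 to 21947 in WT TAC, 16793 in KO Sham and 16277 in WT Sham. Of 12 fibroblast and mural markers, 6 were lower and none higher, Postn (at least 1.49-fold), Col1a1 (-2.04 ± 0.19) and Pi16 (-1.68 ± 0.15) among them, with sums of 32091 to 33573 in KO TAC, 41234 to 43902 in WT TAC, 29508 in KO Sham and 27813 in WT Sham.

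The 2 B cell and dendritic cell markers above background did not pass the test, and Ms4a1, Pax5, Flt3 and Itgax were below background. Of 7 ventricular myocyte markers, 2 were higher in KO TAC, Myh6 (log2 0.77 ± 0.16) and Tnni3 (0.70 ± 0.15), and of 4 atrial markers 3 were lower, Dkk3 (-3.62 ± 0.32), the natriuretic peptide gene Nppa (-2.71 ± 0.28), which ventricle also expresses under load, and Myl4 (-1.41 ± 0.24). The atrial list summed to 5189 to 8848 in KO TAC, 40062 to 43837 in WT TAC, 9016 in KO Sham and 9860 in WT Sham. Over all tested probes 17.1% were lower in KO TAC and 19.2% higher. The part of any of these cell types in the chemokine differences was not tested.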

How the data were processed

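Total RNA of left ventricle was hybridised to Illumina mouse bead arrays, which the authors scanned and summarised in GenomeStudio 2011.1 per the labels. The deposited values were linear intensity per probe. Ranked from low to high, the arrays' values matched to within 0.838%, so they had been quantile normalized by the authors, and whether background had been subtracted was not given in the sources used here. A table of signals before normalization was not used, since the names of its 6 signal columns tied none to a sample.

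With limma 3.58.1 (R 4.3.3), normal-exponential background correction was fitted on each array to 1287 olfactory receptor probes as negative controls (robust, offset 16), followed by log2 transformation and quantile normalization. Gene names came from the platform annotation, which gave 1 symbol to 34885 probes, several to 18 and none to 10378, and all 50 member genes were found by identifier and symbol in RefSeq GRCm38.p6. Probes above background on at least 1 array were tested, without the olfactory receptor probes (17575). One coefficient was fitted per group on all 6 arrays, with 2 residual and 4.77 prior degrees of freedom, so the spread came from the 2 TAC pairs and each sham group was 1 array. The 5 comparisons were adjusted over all tested probes. The smallest p that an exact permutation of 2 and 2 arrays allows is 0.333, and the tests therefore depend on the fitted spread. The number of arrays limits the precision, and between 14916 and 15626 probes were above background per array. The fit was tested on simulated data.

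Errors given with ± are the SE of each log2 fold change. Where 1 group was below background on all its arrays, the fold is a lower bound on the scale of deposited intensities, the brighter mean against the higher of the background level and the dim value on each array. After background correction these folds were larger. Values on each array are given for genes with a probe past the test in any comparison or above background on all 6 arrays, other members are given by range and count, and each other list is described by up to 4 genes with the largest change. The members and lists were chosen with earlier results of these data known. Alternatives were other filters, 1 probe per gene, other background settings and controls, no second normalization, another variance model, the replicate number as a block, each TAC array left out, and the t-test of the study's methods.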

Additional observations from a re-analysis of the deposited data

Results flagged for a closer look

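The effect of TAC differed between genotypes, by the limma test of the difference itself, for 11 probes, given as the log2 effect in KO minus the log2 effect in WT with its adjusted p. Cxcl1 was at -5.70 (adjusted p 0.000809). Cxcl2 was at -3.66 (ILMN_2778289) and -3.48 (ILMN_2811154), both with adjusted p 0.00156. Ccl17 was at -2.49 (0.00908) and Ccl4 at -2.32 (0.00919). Cx3cl1 was at -1.88 (0.0198), Cxcl10 at -1.86 (0.0307), Ccl9 at -1.34 (0.032) and Cxcr6 at -1.19 (0.0378). Cxcl12 was at 1.45 (ILMN_2658908, 0.0176) and 1.29 (ILMN_3158250, 0.0293). In KO hearts the 11 log2 effects of TAC ran from -0.72 (Cxcl10) to 0.09 (Cxcl2), and none passed the test there. Groups of 1 or 2 arrays were too small to be searched for outlying arrays.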

How the results depend on the processing

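In KO TAC vs WT TAC, 13 of 23 calls held under every alternative of the limma fit that tested the probe. They were Cxcl1, both Cxcl2, Ccl17, Ccl4, Ccl6, Cx3cl1, Cx3cr1, Cxcl10, the 2 brighter Cxcl12, the dimmer Cxcl14 and Cxcr6. The fit with 1 probe per gene left out the dimmer Cxcl2, Cxcl12 and Cxcl14 probes of these. A filter asking for 2 arrays above background left out Cxcr6. Both Cxcl2 probes, Ccl17, Ccl4, Cxcl10 and Cxcr6 were above background only on WT TAC arrays, so these calls could only be lower. In WT TAC vs WT Sham 8 of 17 calls held likewise. In the difference between TAC effects 3 of 11 did (Cxcl1 and both Cxcl2). Over all probes, comparisons and alternatives, 1978 results stayed on their side of the threshold, 76 lost and 36 gained a call, and none changed sign while called. Without a filter on low values, 3 probes were higher in KO TAC than in WT TAC (7 in the main analysis). The lower calls of Ccl2, Ccl19, Cxcr2, the brighter Cxcl14 probe and the dimmer Cxcl16 probe were lost as well. In WT TAC against WT Sham 8 were higher (14). In the difference between TAC effects 1 was higher and 3 lower (2 and 9). With 1 probe per gene, 1 was higher in that difference. The methods' t-test gave 0 higher and 0 lower chemokine probes in KO TAC vs WT TAC after Benjamini-Hochberg adjustment, and at an unadjusted p under 0.05 it gave 3 higher and 9 lower, against 17.1% and 14.8% of all tested probes.

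Leaving out 1 TAC array gave 3 to 9 higher and 13 to 16 lower probes in KO TAC vs WT TAC, 9 to 17 higher and 2 to 4 lower in WT TAC vs WT Sham, 0 in KO TAC vs KO Sham, 0 to 1 higher and 0 lower in KO Sham vs WT Sham (Ccl12, without either KO TAC array), and 0 to 3 higher and 7 to 14 lower in the difference between TAC effects. The lone array was then assumed to vary like the other TAC pair. The replicate number did not pair the arrays (correlation of deviations 0.0484), and with it as a block the counts were 7 higher and 16 lower, 16 higher and 3 lower, 0 and 0, 0 and 0, and 3 higher and 9 lower in the same order of comparisons. Intensities close to the background level, such as those of Cxcr2, Cxcr6 and Ccl24, limit what can be said of those genes.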
